A study of Homo sapiens with 18 samples.

Results

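The RAS-RAF-MEK-ERK cascade was described here by 7 of the 57500 genes in the deposited table: the RAS genes NRAS and HRAS, the RAF kinases ARAF and BRAF, the MEK kinases MAP2K1 and MAP2K2, and the ERK kinase MAPK3. They were chosen by name as genes of the cascade itself, as opposed to the genes it controls, and each name matched 1 row. All 7 passed the filter on low values in each line, so none was left out of any test. RNA was measured in 18 libraries from SNU2535 cells, NCI-H3122 cells and NCI-H2228 cells, which are 3 established lines of non-small cell lung cancer, all labelled WT and grown in RPMI 1640 with fetal bovine serum. Cells received 3 µM TRI-611 for 3 h, or DMSO for the same 3 h, with 3 libraries in each of the 6 groups. TRI-611 is described in the title of the study as a glue-type degrader of ALK, a receptor tyrosine kinase that acts upstream of RAS, and the lines are known for EML4-ALK fusions. The comparisons asked whether transcripts of the cascade differed after TRI-611 in each line, and how their levels without TRI-611 differed between lines.

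RAS proteins are small GTPases at the inner face of the plasma membrane, which receptor tyrosine kinases switch on through exchange factors. Active RAS recruits RAF kinases, RAF phosphorylates the MEK kinases, and MEK phosphorylates ERK, which then acts on cytoplasmic and nuclear targets. The flow of signal is set largely by nucleotide binding and phosphorylation, neither of which was measured by RNA sequencing. In lung cancer this cascade is a main route downstream of activated receptor kinases.

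Values are TPM (a transcript abundance scaled by gene length and by library), and differences are on the log2(TPM + 1) scale, TRI-611 minus DMSO, with limma's standard error (SE). A gene was called at a Benjamini-Hochberg adjusted p under 0.05 over all genes tested. Between 23766 and 25921 genes lay above 0 TPM in a library, replicates correlated at r = 0.991 to 0.993 across genes, and mitochondrially encoded genes took 7.59% to 15.0% of TPM. The epithelial keratins KRT8, KRT18 and KRT19 were high in all 3 lines, at 533 TPM (KRT18 in NCI-H2228) or more. EPCAM, another epithelial gene, was at 117 TPM (NCI-H2228) or more. CDH1, an epithelial adhesion gene, was at 5.56 to 6.36 TPM in NCI-H2228, and of the lung adenocarcinoma markers NAPSA and SFTPB were at most 0.182 TPM in NCI-H3122. The third lung marker, NKX2-1, was at 80.6 TPM or more in all 18 libraries. In NCI-H3122 it was at 236 to 271 TPM with TRI-611 and at 116 to 134 TPM with DMSO. It was at 132 to 149 TPM with TRI-611 and 80.6 to 87.0 TPM with DMSO in NCI-H2228. In SNU2535 it was at 408 to 458 TPM with TRI-611 and 328 to 363 TPM with DMSO. Of the markers of other cell types, PTPRC (blood) reached at most 0.129 TPM and PECAM1 (endothelium) at most 6.71 TPM. COL1A1 (fibroblast) was at 361 to 393 TPM in NCI-H2228, 131 to 164 TPM in SNU2535 and 10.8 to 14.1 TPM in NCI-H3122. Read totals cannot be had from TPM, and the depth of each library is therefore unknown.

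The members lie on 7 chromosomes of GRCh38 (positions from GENCODE release 29). NRAS (ENSG00000213281) lies on chromosome 1 from 114704469 to 114716894, HRAS (ENSG00000174775) on chromosome 11 from 532242 to 537287, and ARAF (ENSG00000078061) on chromosome X from 47561100 to 47571920. BRAF (ENSG00000157764) lies on chromosome 7 from 140719327 to 140924928, and MAP2K1 (ENSG00000169032) on chromosome 15 from 66386817 to 66492312. MAP2K2 (ENSG00000126934) lies on chromosome 19 from 4090321 to 4124129, and MAPK3 (ENSG00000102882) on chromosome 16 from 30114105 to 30123506. The annotated exons of BRAF cover 23432 bases, against 1854 (HRAS) to 5236 (MAP2K2) for the other members. The gene length behind the deposited TPM is not given in the sources used here, so the level of BRAF relative to the others depends on it.

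HRAS and BRAF were the members whose calls after TRI-611 held under every alternative tried, and the 250 bases before their RefSeq gene starts (RefSeq, GRCh38.p14) are shown here because motifs of factors that growth signalling acts on were searched in them. Capitals mark matches on either strand to the GC box of SP1 (GGGCGG) or the FOXO motif (GTAAACA). The HRAS window is chr11:535577-535826 and the BRAF window chr7:140924269-140924518, both on the minus strand and written 5′ to 3′ in the direction of the gene. Both windows lie inside the GENCODE spans of these genes given above. They therefore precede the RefSeq start used here, but not the outermost GENCODE start.
HRAS: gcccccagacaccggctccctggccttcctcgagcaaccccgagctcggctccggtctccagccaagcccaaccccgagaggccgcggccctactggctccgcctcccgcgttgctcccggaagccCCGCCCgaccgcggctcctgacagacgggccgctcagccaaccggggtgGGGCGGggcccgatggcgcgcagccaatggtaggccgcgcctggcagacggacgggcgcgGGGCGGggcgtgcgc
BRAF: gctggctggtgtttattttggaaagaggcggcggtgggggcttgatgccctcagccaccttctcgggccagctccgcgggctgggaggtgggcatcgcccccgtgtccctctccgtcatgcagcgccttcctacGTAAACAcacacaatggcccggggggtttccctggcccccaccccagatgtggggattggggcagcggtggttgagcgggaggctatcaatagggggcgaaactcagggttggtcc

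The HRAS window is 77.2% G or C and holds 3 GC boxes, a motif found in 42.6% of the 35116 promoter windows of this length. The BRAF window is 64.8% G or C and holds no GC box and 1 FOXO motif, 116 bases before the start, a motif found in 2.98% of windows. NRAS, which was called lower in NCI-H3122, also has 1 FOXO motif, 234 bases before its start, and the other 5 members have none. Of the windows not shown, those of MAPK3, MAP2K1, NRAS and MAP2K2 hold 6, 3, 2 and 2 GC boxes, and that of ARAF holds none. The E-box of MYC (CACGTG, 6.34% of windows) was found in neither printed window and once each in those of NRAS and MAPK3. An ETS motif (CCGGAAGT, 3.42%), an AP-1 motif (TGACTCA, 4.20%) and a CRE (TGACGTCA, 1.65%) were found in none of the 7 windows. None of the matches in the printed windows overlapped. These are matches of letters and do not show that a factor binds.

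Of 21 tests of the members after TRI-611, 7 in each line, 3 were called, and with 7 members a line these counts are near the share of all genes called. In SNU2535, 1 of the 7 members was called (HRAS, lower), while 28.7% of the 16252 genes tested were called (10.7% higher and 18.1% lower). In NCI-H3122, 2 of 7 were called (BRAF higher, NRAS lower), against 34.1% of 15311 genes (20.6% higher and 13.4% lower). In NCI-H2228, 0 of 7 passed limma's test, against 11.2% of 16806 genes (4.80% higher and 6.40% lower), and there 1 member, HRAS, had an unadjusted p under 0.05. Of the 21 differences, 17 were no larger in size than the median size over all genes tested in the same line (0.16 for SNU2535, 0.18 for NCI-H3122 and 0.11 for NCI-H2228). The exceptions were HRAS and BRAF in NCI-H2228, HRAS in SNU2535 and BRAF in NCI-H3122. In these bulk samples, less RNA per cell and fewer cells that carry it cannot be told apart.

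**Figure D1:**
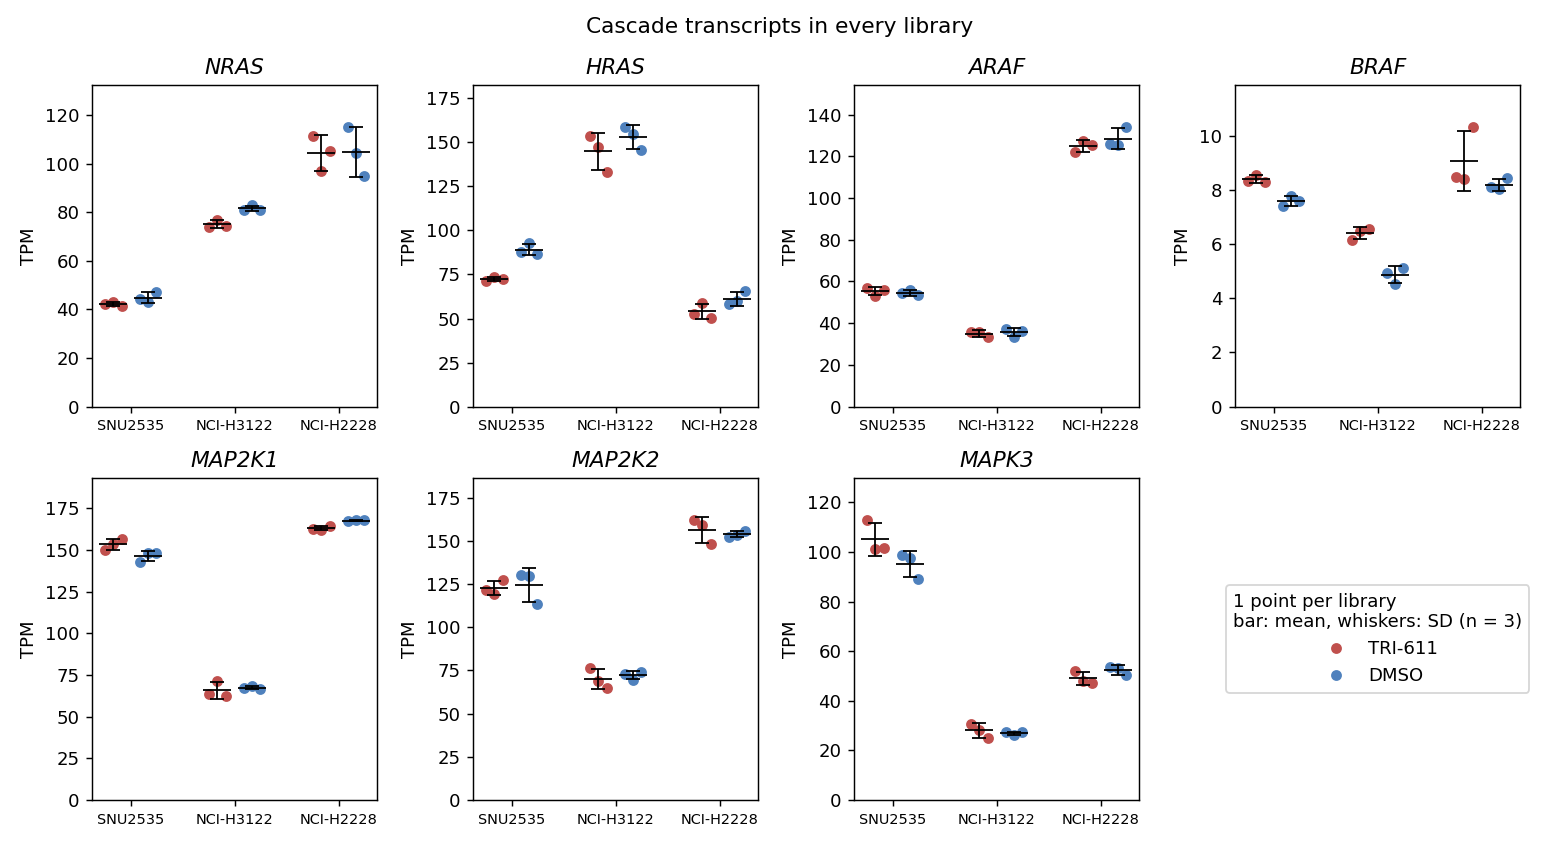
TPM of each cascade transcript (vertical axes, from 0) in the 3 lines, with 1 point per library, the mean as a long bar and the SD as whiskers (n = 3 per group), TRI-611 in red and DMSO in blue. MAPK3 averaged 95.2 TPM in SNU2535 and 26.8 TPM in NCI-H3122 with DMSO, while HRAS in SNU2535 averaged 72.4 TPM with TRI-611 and 89.1 TPM with DMSO.

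**Figure D2:**
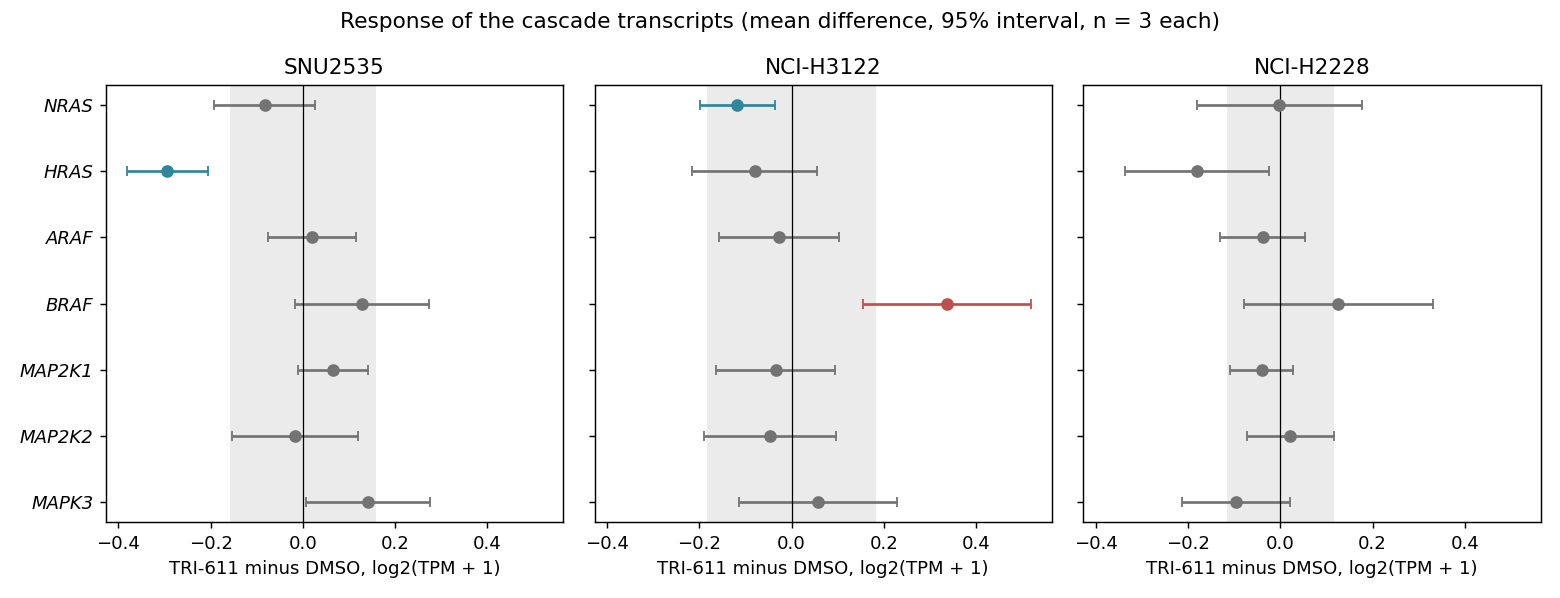
Difference of each cascade transcript after TRI-611 on the log2(TPM + 1) scale (horizontal axis) in each line, as the mean with its 95% interval (limma, n = 3 each), blue for called lower, red for called higher and grey for not called. The grey band spans the median size of all genes tested in that line in either direction; HRAS in SNU2535 (-0.29) and BRAF in NCI-H3122 (0.34) lie outside it, and so do HRAS (-0.18) and BRAF (0.13) in NCI-H2228.

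HRAS encodes a RAS protein whose membrane anchor is farnesylated and palmitoylated. In SNU2535, its level was 71.5, 73.4 and 72.4 TPM with TRI-611, against 87.7, 92.7 and 86.9 TPM with DMSO. All 3 TRI-611 libraries lay below all 3 DMSO libraries, and the difference was -0.29 (SE 0.0378, limma adjusted p = 0.000963), a factor of 0.816. Within batches 1, 2 and 3 it was -0.29, -0.33 and -0.26. Over the alternatives the adjusted p of this difference ran from 0.000252 to 0.0076.

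In NCI-H3122, HRAS was at 154, 147 and 133 TPM with TRI-611 and at 159, 155 and 145 TPM with DMSO. These groups overlapped, and the difference was -0.08 (SE 0.0588, limma adjusted p = 0.337). In NCI-H2228 it was at 52.7, 58.9 and 50.5 TPM with TRI-611, against 58.4, 59.8 and 65.9 TPM with DMSO. Of the TRI-611 libraries, 1 lay within the DMSO range, and the difference of -0.18 (SE 0.0678) did not pass limma's test after adjustment (unadjusted p = 0.0274, adjusted p = 0.133). In each line HRAS was lower with TRI-611 in 3 of 3 batches. This count adds little to the group values, as deviations within a batch correlated only at r = -0.09 to 0.10.

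NRAS, the other RAS gene, encodes a closely related GTPase. In NCI-H3122 it was at 74.0, 76.9 and 74.5 TPM with TRI-611, against 80.9, 82.9 and 81.1 TPM with DMSO. The groups did not overlap, and the difference of -0.12 (SE 0.0349, limma adjusted p = 0.0346) passed the test by a small margin. The limma adjusted p was 0.0995 with the batch as a replicate block. It was 0.0878 when TRI-611 replicate 1 was left out, 0.0765 when TRI-611 replicate 3 was, and 0.0738, 0.106 and 0.101 when DMSO replicate 1, 2 or 3 was. The call was also lost with no filter (0.0640), with quantile normalization (0.0516), without mitochondrially encoded genes (0.0617), in a fit of all 18 libraries (0.136) and with plain empirical Bayes (0.0821).

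In SNU2535, NRAS was at 42.4, 43.0 and 41.3 TPM with TRI-611 and at 44.2, 43.0 and 47.4 TPM with DMSO (-0.08, SE 0.0469, limma adjusted p = 0.239). In NCI-H2228 it was at 111, 96.8 and 105 TPM with TRI-611 and at 115, 104 and 94.9 TPM with DMSO, a difference of -0.0025 (SE 0.0773, limma adjusted p = 0.990). The 2 treatments overlapped in both of these lines.

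BRAF encodes the RAF kinase with the highest basal activity toward MEK. In NCI-H3122 it was at 6.17, 6.48 and 6.58 TPM with TRI-611, against 4.95, 4.52 and 5.13 TPM with DMSO. Every TRI-611 library lay above every DMSO library, and the difference was 0.34 (SE 0.0785, limma adjusted p = 0.0129), a factor of 1.26. Within batches 1, 2 and 3 it was 0.27, 0.44 and 0.31, and the adjusted p ran from 0.000931 to 0.0467 over the alternatives.

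BRAF in SNU2535 was at 8.34, 8.57 and 8.30 TPM with TRI-611 and at 7.41, 7.79 and 7.62 TPM with DMSO. Here too the groups did not overlap, but the difference of 0.13 (SE 0.0625) did not pass limma's test (adjusted p = 0.174). In NCI-H2228 BRAF was at 8.47, 8.41 and 10.3 TPM with TRI-611 and at 8.12, 8.03 and 8.45 TPM with DMSO (0.13, SE 0.0896, limma adjusted p = 0.436), with replicate 3 of TRI-611 above the other 5 libraries. In each line BRAF was higher with TRI-611 in 3 of 3 batches. As for HRAS, this count adds little to the group values.

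The exons of BRAF share 1239 bases, or 5.29% of their length, with NDUFB2 on the opposite strand, a gene of mitochondrial complex I. Whether reads were counted by strand is not stated, so reads in the shared bases cannot be told apart. NDUFB2 averaged 38.1 ± 1.49 TPM with TRI-611 and 40.1 ± 1.46 TPM with DMSO in NCI-H3122 (SD, n = 3 each), a difference of -0.07 (limma adjusted p = 0.305). In SNU2535 and NCI-H2228 its differences were -0.02 (limma adjusted p = 0.758) and 0.04 (limma adjusted p = 0.709). The part of NDUFB2 reads in the BRAF values was not tested.

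ARAF, the other RAF kinase here, is encoded on the X chromosome and was not called in any line. It was at 56.8, 53.2 and 56.0 TPM with TRI-611, against 54.3, 56.0 and 53.4 TPM with DMSO, in SNU2535 (0.02, SE 0.0410, limma adjusted p = 0.762). In NCI-H3122 it was at 36.0, 35.7 and 33.2 TPM with TRI-611 and at 37.4, 33.5 and 36.0 TPM with DMSO (-0.03, SE 0.0561, limma adjusted p = 0.740). In NCI-H2228 it was at 122, 127 and 125 TPM with TRI-611 and at 126, 125 and 134 TPM with DMSO (-0.04, SE 0.0400, limma adjusted p = 0.609). The treatments overlapped in all 3 lines, and each 95% interval of the ARAF difference lay between -0.16 and 0.12.

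MAP2K1 encodes MEK1, 1 of the 2 kinases that phosphorylate ERK. In SNU2535 it was at 149.9, 154 and 156 TPM with TRI-611, against 143, 148 and 148 TPM with DMSO. The groups did not overlap, yet the difference was 0.07 (SE 0.0329, limma adjusted p = 0.185). It passed under median-ratio scaling (0.10, adjusted p = 0.0466) and under quantile normalization (0.11, adjusted p = 0.0378).

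In NCI-H2228 MAP2K1 was at 163, 162 and 164 TPM with TRI-611 and at 167, 168 and 168 TPM with DMSO, again without overlap and in the other direction (-0.04, SE 0.0300, limma adjusted p = 0.451). In NCI-H3122 it averaged 65.8 ± 5.03 TPM with TRI-611 and 67.3 ± 0.860 TPM with DMSO (SD, n = 3 each; -0.03, limma adjusted p = 0.674), and the groups overlapped. MAP2K1 exons share 216 bases with SNAPC5 and 432 with the antisense gene AC116913.1 on the opposite strand, which were at 19.0 to 49.95 TPM and 0.637 to 2.57 TPM over the 18 libraries. SNAPC5, a subunit of a small nuclear RNA transcription complex, was at 37.6 ± 2.18 TPM with TRI-611 and 44.1 ± 2.33 TPM with DMSO in NCI-H2228 (SD, n = 3 each; -0.23, limma adjusted p = 0.0414). In SNU2535 and NCI-H3122 its differences were -0.16 (limma adjusted p = 0.0582) and -0.14 (limma adjusted p = 0.0988). Its part in the MAP2K1 values was not tested.

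MAP2K2 encodes MEK2, which acts alongside MEK1. It averaged 123 ± 3.93 TPM with TRI-611 and 124 ± 9.74 TPM with DMSO in SNU2535 (SD, n = 3 each; -0.02, limma adjusted p = 0.864). In NCI-H3122 the means were 70.0 ± 5.86 TPM with TRI-611 and 72.2 ± 2.26 TPM with DMSO (SD, n = 3 each; -0.05, limma adjusted p = 0.605). In NCI-H2228 they were 156 ± 7.35 TPM with TRI-611 and 154 ± 1.87 TPM with DMSO (SD, n = 3 each; 0.02, limma adjusted p = 0.799). MAP2K2 overlapped between treatments in every line.

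MAPK3 encodes ERK1, the last kinase of the cascade. In SNU2535 it was at 113, 101 and 101 TPM with TRI-611, against 98.8, 97.6 and 89.2 TPM with DMSO. The groups did not overlap, and the difference was 0.14 (SE 0.0579, unadjusted p = 0.0422 and adjusted p = 0.114 in limma); it passed only under quantile normalization (0.19, adjusted p = 0.0429). In NCI-H3122 MAPK3 was at 30.8, 28.4 and 25.0 TPM with TRI-611 and at 27.2, 26.1 and 27.2 TPM with DMSO (0.06, SE 0.0738, limma adjusted p = 0.592). In NCI-H2228 it was at 52.0, 47.8 and 47.2 TPM with TRI-611 and at 53.7, 53.3 and 50.2 TPM with DMSO (-0.10, SE 0.0516, limma adjusted p = 0.288), with 1 TRI-611 library inside the DMSO range.

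Counted by overlap, 4 of 7 members had separate groups in SNU2535, where 43.9% of all genes tested did. In NCI-H3122, 2 of 7 were separate (48.1% of genes), and in NCI-H2228, 1 of 7 (31.4% of genes). The median difference of the members was 0.02 in SNU2535, -0.03 in NCI-H3122 and -0.04 in NCI-H2228, beside -0.02, 0.05 and 0.01 over all genes tested.

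A call in 1 line and not in another does not show that the lines differ, so the difference between responses was tested as an interaction in limma. None of the 7 members was called between SNU2535 and NCI-H3122, where 20.1% of genes were (3.71% higher and 16.4% lower), although 2 members, HRAS and BRAF, had unadjusted p of 0.0118 and 0.0383. Between SNU2535 and NCI-H2228, 0 of 7 were called against 10.6% of genes (2.74% higher and 7.83% lower), with unadjusted p of 0.0222 for MAP2K1 and 0.0114 for MAPK3. Between NCI-H3122 and NCI-H2228, 0 of 7 were called against 14.3% of genes (8.99% higher and 5.34% lower), and no unadjusted p was under 0.05.

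HRAS came nearest the threshold: its response in SNU2535 minus that in NCI-H3122 was -0.21 (SE 0.0724, 95% interval -0.37 to -0.06, limma adjusted p = 0.0557). With the batch as a replicate block the limma adjusted p was 0.0378, and it was 0.0378 with a filter at a mean TPM of 5, 0.0147 without mitochondrially encoded genes, 0.0486 without DMSO replicate 1 of NCI-H3122 and 0.00968 without TRI-611 replicate 3 of NCI-H3122. Mitochondrially encoded genes took their highest share, 15.0% of TPM, in that last library, and their part in the result was tested only by leaving them out. The BRAF difference between the same lines was -0.21 (SE 0.0900, limma adjusted p = 0.125, or 0.0462 with plain empirical Bayes).

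For MAP2K1, the SNU2535 response minus the NCI-H3122 response was 0.10 (SE 0.0659, limma adjusted p = 0.321), and the adjusted p was 0.0214 under median-ratio scaling and 0.0392 without TRI-611 replicate 2 of NCI-H3122. Between SNU2535 and NCI-H2228 the MAP2K1 difference was 0.11 (SE 0.0408, limma adjusted p = 0.122, or 0.0202 under median-ratio scaling). The MAPK3 difference between these lines was 0.24 (SE 0.0801, limma adjusted p = 0.0802), with 0.0220 when the batch was a replicate block and 0.0483 with a filter at a mean TPM of 5.

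Ratios of 2 related genes within a library do not depend on a single factor by which that library is scaled. With 3 libraries against 3, the smallest p that the exact permutation test can give is 0.1, so no ratio could pass 0.05. ARAF over BRAF was 6.59 ± 0.327 with TRI-611 and 7.18 ± 0.154 with DMSO in SNU2535 (SD, n = 3 each; exact permutation p = 0.1). In NCI-H3122 it was 5.46 ± 0.399 with TRI-611 and 7.33 ± 0.281 with DMSO, and in NCI-H2228 it was 13.9 ± 1.57 with TRI-611 and 15.6 ± 0.202 with DMSO (SD, n = 3 each; exact permutation p = 0.1 in both). In all 3 lines every TRI-611 ratio of ARAF to BRAF lay below every DMSO ratio.

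NRAS over HRAS was 0.583 ± 0.0116 with TRI-611 and 0.504 ± 0.0409 with DMSO in SNU2535, without overlap (SD, n = 3 each; exact permutation p = 0.1). The treatments overlapped in the other two lines, at 0.521 ± 0.0382 with TRI-611 and 0.534 ± 0.0239 with DMSO in NCI-H3122, and at 1.95 ± 0.264 with TRI-611 and 1.72 ± 0.266 with DMSO in NCI-H2228 (SD, n = 3 each; exact permutation p = 0.7 and 0.4). MAP2K1 over MAP2K2 overlapped in every line and stayed near 1, at 1.2505 ± 0.0318 with TRI-611 and 1.18 ± 0.114 with DMSO in SNU2535. It was 0.945 ± 0.107 with TRI-611 and 0.933 ± 0.0407 with DMSO in NCI-H3122, and 1.04 ± 0.0570 with TRI-611 and 1.09 ± 0.0120 with DMSO in NCI-H2228 (SD, n = 3 each).

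**Figure D3:**
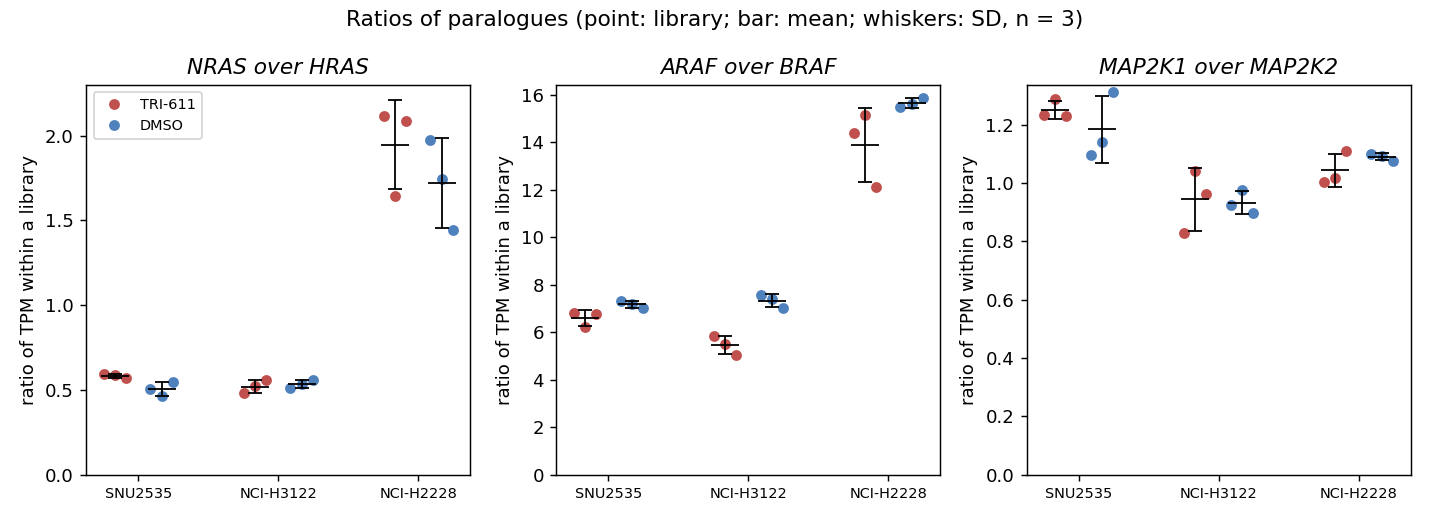
Ratio of TPM of 2 related genes within each library (vertical axes, from 0), with 1 point per library, the mean as a bar and the SD as whiskers (n = 3), TRI-611 in red and DMSO in blue. ARAF over BRAF is lower with TRI-611 in each line (5.46 with TRI-611 and 7.33 with DMSO in NCI-H3122), and NRAS over HRAS is above 1 in NCI-H2228 (1.95 with TRI-611 and 1.72 with DMSO) and below 1 in the other two lines.

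Levels without TRI-611 were called different between lines in 20 of 21 tests of the members, against 3 of 21 between treatments. Over the 9 DMSO libraries, 7 of 7 members differed between SNU2535 and NCI-H3122, where 76.1% of the 18233 genes tested did (45.4% higher and 30.7% lower in SNU2535). Between SNU2535 and NCI-H2228, 6 of 7 differed (75.0% of genes, 32.4% higher and 42.6% lower), with BRAF the exception. All 7 differed between NCI-H3122 and NCI-H2228 (79.3% of genes, 30.0% higher and 49.3% lower). The libraries of the lines did not overlap for any of the 7 members in any pair, as for 78.3% of genes between SNU2535 and NCI-H3122, 76.4% between SNU2535 and NCI-H2228 and 80.7% between NCI-H3122 and NCI-H2228. Most genes differ between these lines, so the counts are close to the background.

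HRAS and NRAS were both lower in SNU2535 than in NCI-H3122, while NCI-H2228 was the lowest line for HRAS and the highest for NRAS. HRAS averaged 89.1 ± 3.18 TPM in SNU2535, 153 ± 6.82 TPM in NCI-H3122 and 61.3 ± 3.98 TPM in NCI-H2228 (SD, n = 3 each). NRAS averaged 44.8 ± 2.26 TPM in SNU2535, 81.6 ± 1.13 TPM in NCI-H3122 and 105 ± 10.1 TPM in NCI-H2228 (SD, n = 3 each). NRAS therefore made up 33.5% of the summed TPM of the 2 RAS genes in SNU2535, 34.8% in NCI-H3122 and 63.0% in NCI-H2228.

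NCI-H3122 and NCI-H2228 were neighbours for NRAS whose difference kept its sign but lost its call under other scalings. Their difference, NCI-H3122 minus NCI-H2228, was -0.35 (SE 0.0651, limma adjusted p = 0.000705), and it was -0.06 (adjusted p = 0.489) under median-ratio scaling and -0.12 (adjusted p = 0.131) under quantile normalization. HRAS was higher in NCI-H3122 than in NCI-H2228 by 1.31 (SE 0.0527, limma adjusted p = 9.49e-09), while SNU2535 minus NCI-H3122 was -0.77 (SE 0.0527, limma adjusted p = 5.40e-07).

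ARAF differed more between lines than BRAF did. It averaged 54.6 ± 1.33 TPM in SNU2535, 35.7 ± 1.99 TPM in NCI-H3122 and 128 ± 5.01 TPM in NCI-H2228 (SD, n = 3 each), so the highest line was 3.60 times the lowest. BRAF averaged 7.60 ± 0.190 TPM in SNU2535, 4.87 ± 0.313 TPM in NCI-H3122 and 8.20 ± 0.221 TPM in NCI-H2228 (SD, n = 3 each), where the highest line was 1.68 times the lowest. SNU2535 and NCI-H2228 were neighbours for BRAF that did not differ beyond the test (-0.10, 95% interval -0.24 to 0.04, limma adjusted p = 0.179). The difference was 0.0006 under quantile normalization.

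MEK transcripts were lowest in NCI-H3122. MAP2K1 averaged 147 ± 3.08 TPM in SNU2535, 67.3 ± 0.860 TPM in NCI-H3122 and 168 ± 0.297 TPM in NCI-H2228 (SD, n = 3 each). MAP2K2 averaged 124 ± 9.74 TPM in SNU2535, 72.2 ± 2.26 TPM in NCI-H3122 and 154 ± 1.87 TPM in NCI-H2228 (SD, n = 3 each). The summed TPM of both MEK genes was 271 ± 8.33 in SNU2535, 139.5 ± 1.54 in NCI-H3122 and 322 ± 2.08 in NCI-H2228 (SD, n = 3 each). For SNU2535 against NCI-H3122 the differences were 1.11 for MAP2K1 (limma adjusted p = 3.33e-10) and 0.77 for MAP2K2 (limma adjusted p = 5.73e-07).

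MAPK3 was highest in SNU2535, the one member for which that was so. It averaged 95.2 ± 5.22 TPM in SNU2535, 26.8 ± 0.651 TPM in NCI-H3122 and 52.4 ± 1.89 TPM in NCI-H2228 (SD, n = 3 each), a range of 3.55 times. The widest differences of ARAF and MAPK3 were close in size, at -1.82 (NCI-H3122 minus NCI-H2228) for ARAF and 1.79 (SNU2535 minus NCI-H3122) for MAPK3, and at -1.53 and 1.60 under median-ratio scaling. The difference of SNU2535 minus NCI-H3122 was 1.79 (SE 0.0471, limma adjusted p = 6.53e-10), and that of SNU2535 minus NCI-H2228 was 0.85 (SE 0.0471, limma adjusted p = 1.34e-07).

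NCI-H3122 was therefore the lowest line for 5 of the members (ARAF, BRAF, MAP2K1, MAP2K2 and MAPK3) and the highest for HRAS. On the TPM scale the median over all genes was itself 0.16 higher in SNU2535 than in NCI-H3122, and 0.25 lower in NCI-H3122 than in NCI-H2228, both as log2 differences. Median-ratio scaling brought these medians to 0.01 and -0.02, and quantile normalization to -0.08 and 0.09. Under both scalings the 5 members remained lower in NCI-H3122 than in either other line. BRAF was nearest to losing this, at 0.17 for SNU2535 minus NCI-H3122 (limma adjusted p = 0.0151) and -0.17 for NCI-H3122 minus NCI-H2228 (limma adjusted p = 0.0147) under quantile normalization.

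Within a line, 6 of the members stood above the median level of tested genes with DMSO (13.3 TPM in SNU2535, 12.4 TPM in NCI-H3122 and 13.2 TPM in NCI-H2228), and BRAF stood below it. MAP2K1 was the highest member in SNU2535 and NCI-H2228, at the 92.8th and 93.8th percentile of tested genes, and HRAS was the highest in NCI-H3122, at the 93.3rd percentile.

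**Figure D4:**
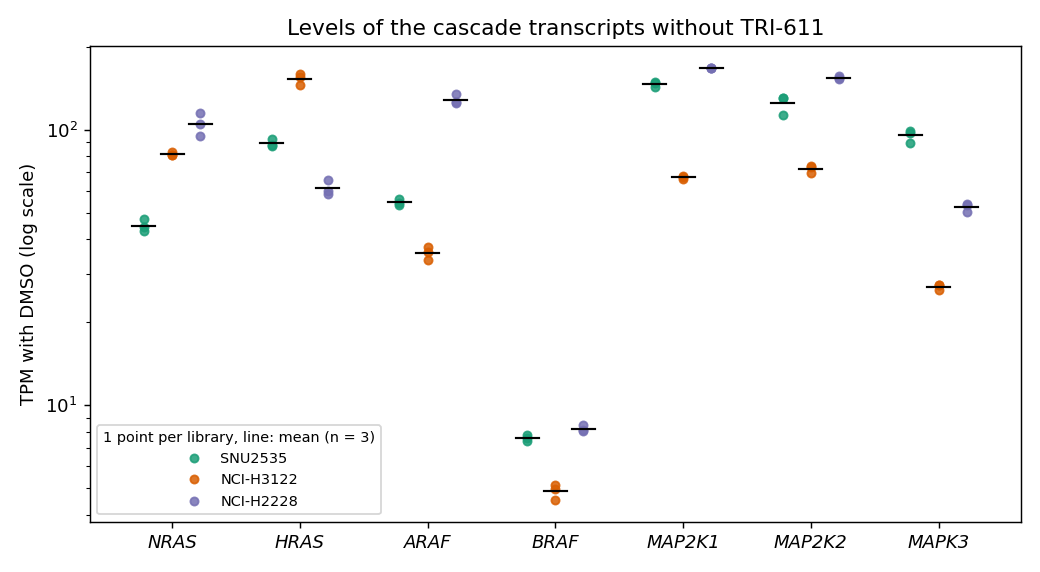
TPM of each cascade transcript with DMSO (vertical axis, log scale), with 1 point per library and the mean as a line (n = 3), for SNU2535 in green, NCI-H3122 in orange and NCI-H2228 in purple. NCI-H3122 is lowest for ARAF, BRAF, MAP2K1, MAP2K2 and MAPK3 and highest for HRAS, at 153 TPM.

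For members whose DMSO levels differed between some lines by at least 1 on the log2(TPM + 1) scale, the genes with the most similar profile over the 18 libraries were sought among 19939 genes, by the root mean square difference of centred log2(TPM + 1). The nearest to NRAS were PSMA5 (0.0846), a proteasome subunit, and PFDN6 (0.0857), a prefoldin subunit. HRAS lay nearest to TARS (0.0898), a threonyl-tRNA synthetase, and CLUH (0.0954), which binds mRNAs of mitochondrial proteins. ARAF lay nearest to STT3A (0.0890) and ALG9 (0.0897), which both serve N-glycosylation.

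MAP2K1 was closest to NDFIP1 (0.0672), an adaptor of NEDD4 ubiquitin ligases, and HSDL2 (0.0688). MAP2K2 was closest to DDRGK1 (0.0551), which takes part in UFM1 conjugation, and MBOAT7 (0.0758), a lysophospholipid acyltransferase. MAPK3 was closest to RRAS (0.0974), a RAS-related GTPase, and NNT (0.113), a mitochondrial transhydrogenase. These distances describe mainly the order of the lines, since the 18 libraries come from 3 of them.

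Lists of genes around the cascade, grouped by role, held some differences larger than those of its members. Of the exchange factors and adaptors that link receptors to RAS, 3 of 8 tested rose and 1 fell in SNU2535 (all genes 10.7% and 18.1%), and 4 of 8 rose and 2 fell in NCI-H3122 (20.6% and 13.4%). In NCI-H2228, 2 of 7 rose and none fell (4.80% and 6.40%). Those 2, GAB1 and SOS2, both lost their call when TRI-611 replicate 1 (limma adjusted p = 0.116 and 0.0708), TRI-611 replicate 3 (0.0984 and 0.0689) or DMSO replicate 2 (0.0966 and 0.0746) was left out. GAB1 also lost it without TRI-611 replicate 2 (0.0575) or DMSO replicate 1 (0.0949) and with the replicate block (0.0573). The fall in SNU2535, of the adaptor SHC1, was lost with the block (limma adjusted p = 0.0605) and without TRI-611 replicate 2 or 3 or DMSO replicate 1 or 2, and falls in NCI-H3122 numbered 1 without DMSO replicate 1 or 3. In SNU2535, GAB1, a docking adaptor of receptor kinases, was at 16.8 ± 1.62 TPM with TRI-611 and 9.79 ± 0.734 TPM with DMSO (SD, n = 3 each; 0.72, limma adjusted p = 0.000635). SOS2, a RAS exchange factor, was at 38.7 ± 0.616 TPM with TRI-611 and 29.1 ± 1.80 TPM with DMSO there (SD, n = 3 each; 0.40, limma adjusted p = 0.000969). In NCI-H3122 the adaptor GAB2 rose by 0.54 (limma adjusted p = 0.000833). GAB1 was at 2.29 ± 0.155 TPM with TRI-611 and 0.996 ± 0.138 TPM with DMSO in NCI-H3122 (SD, n = 3 each), near the filter of 1 TPM. Its rise there of 0.72 (limma adjusted p = 0.00472) held in every alternative in which it was tested.

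GTPase-activating proteins switch RAS off. Of 6 tested in SNU2535 and 7 in NCI-H3122, 1 rose and 2 fell in each line, beside 10.7% of all genes higher and 18.1% lower in SNU2535 and 20.6% and 13.4% in NCI-H3122. RASA1 was at 107 ± 4.83 TPM with TRI-611 and 140.3 ± 4.97 TPM with DMSO in SNU2535 (SD, n = 3 each; -0.39, limma adjusted p = 0.000527), and at 90.0 ± 3.08 TPM with TRI-611 and 134 ± 4.62 TPM with DMSO in NCI-H3122 (SD, n = 3 each; -0.57, limma adjusted p = 5.01e-05). RASA2 also fell in both, with differences of -0.81 in SNU2535 (limma adjusted p = 0.000269) and -0.40 in NCI-H3122 (limma adjusted p = 0.00617). DAB2IP, of the same family, rose in SNU2535 (0.39, limma adjusted p = 0.00013), and so did RASAL2 in NCI-H3122 (0.44, limma adjusted p = 0.0125). In NCI-H2228, 0 of 8 passed limma's test (4.80% and 6.40% of all genes), and 3 had an unadjusted p under 0.05; 1 rose without DMSO replicate 3 or with the replicate block, and 1 fell without DMSO replicate 1.

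Genes that process and place RAS at membranes included 2 falls and no rise among 12 in SNU2535, and 3 falls and 2 rises among 12 in NCI-H3122. These counts are near the shares of all genes (18.1% lower and 10.7% higher in SNU2535, and 13.4% and 20.6% in NCI-H3122). Rises numbered 1 in SNU2535 without DMSO replicate 3, and 1 in NCI-H3122 without TRI-611 replicate 3 or DMSO replicate 1 or 2. RCE1, the protease that trims prenylated RAS, fell in SNU2535 (-0.33, limma adjusted p = 0.00155) and NCI-H3122 (-0.49, limma adjusted p = 0.000129). ABHD17C, of a family of depalmitoylases, fell in the same lines (-0.57, limma adjusted p = 0.00389, and -0.52, limma adjusted p = 0.000181). In NCI-H2228, 0 of the 12 passed limma's test (4.80% of all genes were higher and 6.40% lower), and 3 had an unadjusted p under 0.05. There, 1 fell with the replicate block or without TRI-611 replicate 1.

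Among 8 other RAS subfamily GTPases, 1 rose and 1 fell in SNU2535, 1 rose and 2 fell in NCI-H3122, and 1 fell in NCI-H2228, beside 10.7% higher and 18.1% lower, 20.6% and 13.4%, and 4.80% and 6.40% of all genes. RALB, which acts downstream of RAS through its own exchange factors, was the fall in SNU2535 and in NCI-H2228. RALB also fell in NCI-H3122 (-0.24, limma adjusted p = 0.00501), and there its call held in every alternative. In NCI-H2228 its call was lost with the replicate block (limma adjusted p = 0.0743) and without any 1 of the 6 libraries, and in SNU2535 without TRI-611 replicate 2 or 3 or DMSO replicate 1 or 2. In NCI-H3122 falls numbered 1 with the block or without DMSO replicate 1 or 3, and rises 2 without TRI-611 replicate 3 or DMSO replicate 3.

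Among scaffolds and regulators of RAF and MEK, 3 of 20 tested rose and 5 fell in SNU2535, 5 of 21 rose and 4 fell in NCI-H3122, and 1 of 20 rose and 2 fell in NCI-H2228. These counts, too, are near the shares of all genes (10.7% higher and 18.1% lower, 20.6% and 13.4%, and 4.80% and 6.40%), and they moved with the processing. In SNU2535, 1 rose and 3 fell with the replicate block; rises numbered 1 without any 1 TRI-611 library or without DMSO replicate 2, and falls 3 without TRI-611 replicate 2 or any 1 DMSO library. In NCI-H3122, rises numbered 1 with the block and without TRI-611 replicate 2 or DMSO replicate 2, and 2 without TRI-611 replicate 1 or DMSO replicate 1 or 3, while falls numbered 2 without DMSO replicate 1 or 3. The rise in NCI-H2228 was lost with the block and without any 1 TRI-611 library or DMSO replicate 1 or 2. KSR1 was among the falls in SNU2535. It passed the filter there only through its DMSO libraries, the group in which it was high, so its call carries no weight. YWHAG, a 14-3-3 protein of the family that binds phosphorylated RAF, fell in each line, with differences of -0.54 in SNU2535 (limma adjusted p = 1.29e-05), -0.29 in NCI-H3122 (limma adjusted p = 0.000767) and -0.30 in NCI-H2228 (limma adjusted p = 0.00109). PEA15, which binds ERK in the cytoplasm, fell in NCI-H3122 (-0.40, limma adjusted p = 0.00062). Among kinases that ERK activates, RPS6KA4 fell in each line, with differences of -0.42 in SNU2535 (limma adjusted p = 0.000463), -0.26 in NCI-H3122 (limma adjusted p = 0.00864) and -0.31 in NCI-H2228 (limma adjusted p = 0.00151). Of the 7 tested, 2 fell in SNU2535, 1 rose and 1 fell in NCI-H3122, and 1 fell in NCI-H2228, beside 18.1% lower, 20.6% higher and 13.4% lower, and 6.40% lower over all genes. The other fall in SNU2535, of MKNK1, a kinase that phosphorylates the translation factor eIF4E, was lost with the replicate block (limma adjusted p = 0.0824); falls numbered 1 without TRI-611 replicate 3 or any 1 DMSO library, and 1 rose without DMSO replicate 2. The rise in NCI-H3122 was of RPS6KA5, at 1.21 ± 0.111 TPM with TRI-611 and 0.518 ± 0.00826 TPM with DMSO (SD, n = 3 each). RPS6KA5 passed the filter there only through its TRI-611 libraries, the group in which it was high, so its call carries no weight. No rise was counted in NCI-H3122 with the block or without any 1 of the 6 libraries. Without any 1 TRI-611 library RPS6KA5 was not tested.

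Kinases of the parallel MAP kinase modules split in direction, with 2 rises and 6 falls among 13 tested in SNU2535, 3 and 5 among 14 in NCI-H3122, and 1 and 3 among 14 in NCI-H2228, beside 10.7% and 18.1%, 20.6% and 13.4%, and 4.80% and 6.40% of all genes. The rises in SNU2535 were of MAP2K5 and MAP2K7, kinases of the ERK5 and JNK modules, and both calls were lost with the replicate block (limma adjusted p = 0.0578 and 0.0650). Rises there numbered 0 without TRI-611 replicate 1 or 2 or DMSO replicate 1 or 2, and 1 without TRI-611 replicate 3 or DMSO replicate 3. Falls in NCI-H3122 numbered 3 with the block or without any 1 library but TRI-611 replicate 1. In NCI-H2228 the rise was lost without any 1 library but DMSO replicate 3, and falls numbered 1 without TRI-611 replicate 1 or DMSO replicate 1. MAP2K4, which activates JNK and p38 kinases, was among them, with differences of -0.65 in SNU2535 (limma adjusted p = 0.000118) and -0.36 in NCI-H3122 (limma adjusted p = 0.00274). MAPK6, an atypical MAP kinase, also fell, with differences of -0.53 in SNU2535 (limma adjusted p = 0.000171) and -0.39 in NCI-H3122 (limma adjusted p = 0.000164). MAPK14, the p38 alpha kinase, rose in NCI-H3122 (0.30, limma adjusted p = 0.00193). MAP2K5 rose in NCI-H3122 too (0.36, limma adjusted p = 0.00699), and there its call held in every alternative.

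Of 4 tested kinases outside the RAF family that can phosphorylate MEK, 2 rose in SNU2535, 3 in NCI-H3122 and 3 in NCI-H2228, and none fell, beside 10.7%, 20.6% and 4.80% of all genes higher. Under median-ratio scaling and quantile normalization 1 fell in NCI-H3122, and in NCI-H2228 the rises numbered 1 without TRI-611 replicate 3 or DMSO replicate 2. In NCI-H3122, MAP3K8 was at 7.85 ± 1.04 TPM with TRI-611 and 3.09 ± 0.0794 TPM with DMSO (SD, n = 3 each; 1.11, limma adjusted p = 0.000152). MAP3K3 was at 10.7 ± 0.685 TPM with TRI-611 and 4.78 ± 0.214 TPM with DMSO there (SD, n = 3 each; 1.01, limma adjusted p = 5.53e-05). In SNU2535 the rise of MAP3K1 (0.33, limma adjusted p = 0.00233) held in all alternatives, while that of MAP3K2 (0.19, limma adjusted p = 0.04996) did not. Its limma adjusted p was 0.0904 with the replicate block, 0.138 when TRI-611 replicate 2 was left out, 0.1002 when TRI-611 replicate 3 was, and 0.107, 0.128 and 0.0928 when DMSO replicate 1, 2 or 3 was. In NCI-H2228 MAP3K3 rose by 0.42 (limma adjusted p = 0.00433), and MAP3K8 by 0.46 (limma adjusted p = 0.016, or 0.0526 without DMSO replicate 2 and 0.0606 without TRI-611 replicate 3).

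A published signature of 10 transcripts that the cascade controls gives the scale of the change downstream. All 10 fell in SNU2535, 9 in NCI-H3122 and 9 in NCI-H2228, with a median difference of -1.76 for SNU2535, -1.29 for NCI-H3122 and -0.85 for NCI-H2228 (18.1%, 13.4% and 6.40% of all genes were lower). The signature was named with these results known, so its direction is no independent evidence. DUSP6, a phosphatase of ERK in that signature, was at 11.0 ± 1.74 TPM with TRI-611 and 243 ± 6.59 TPM with DMSO in NCI-H3122 (SD, n = 3 each; -4.36, limma adjusted p = 4.64e-07). In SNU2535 DUSP6 and SPRY4, and in NCI-H3122 SPRY4, were below 1 TPM with TRI-611 and passed the filter through their DMSO libraries.

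**Figure D5:**
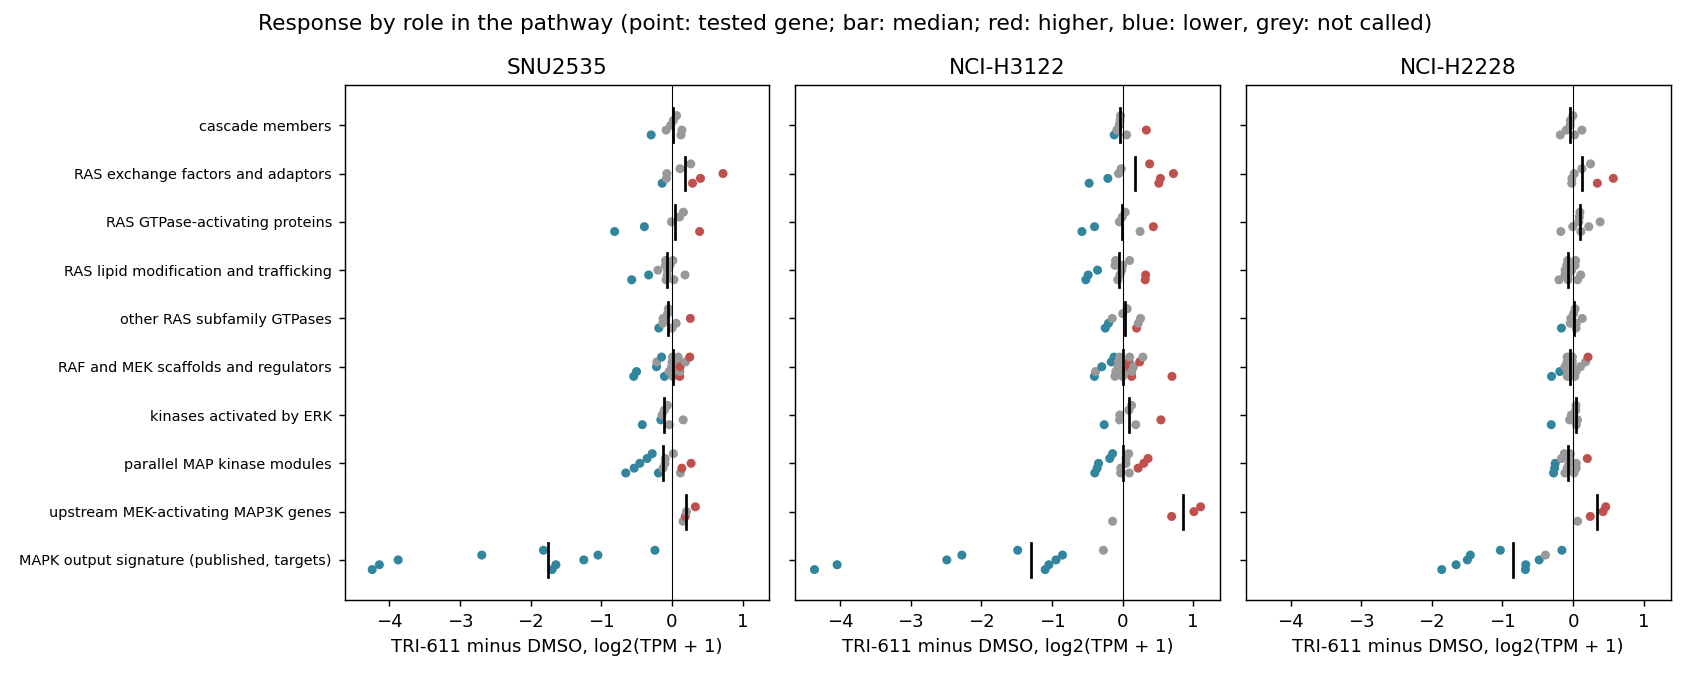
Difference after TRI-611 on the log2(TPM + 1) scale (horizontal axis) for the tested genes of each list by role, with 1 point per gene, the list's median as a bar, red for called higher, blue for called lower and grey for not called (limma, n = 3 each). The cascade members lie between -0.29 and 0.34 in the 3 lines, while the output signature reaches -4.36 in NCI-H3122.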

How the data were processed

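Poly-A RNA from 18 libraries was analysed from 1 table of TPM values that the authors deposited for 57500 genes, 485 of them without a name. The submitters' processing notes name STAR 2.5.2b, Subread 1.5.2, featureCounts, fastp 0.23.1, DESeq2 and the build GRCh38. Not given in the sources used here: the annotation, the strand setting, the use of the molecular identifiers and how TPM was derived. TPM keeps no read totals, so no counting interval could be given.

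TPM was transformed to log2(TPM + 1), which understates changes of low genes. A gene was tested if at least 3 of the fitted libraries held 1 TPM or more. For differences in response, this had to hold among the libraries of each of the 2 lines separately. The test used limma (version 3.58.1, run in R 4.3.3; empirical Bayes, trend and robust), two-sided, with Benjamini-Hochberg adjustment over all genes tested. The 6 libraries of a line were fitted for each response, the 12 libraries of 2 lines for each difference in response, and the 9 DMSO libraries for levels. Ratios were tested with an exact permutation test (two-sided). Tables were made with Python 3.11.15 and pandas 2.3.3. The fits were checked on simulated data.

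Batch numbers 1 to 3 equal the replicate numbers, and the labels mark a shared batch, so the batch was a replicate block in an alternative fit. Deviations of libraries of the same batch correlated at r = -0.09 to 0.10. Each batch holds 1 library per group. The labels do not say whether replicates were grown as separate cultures. The p-values therefore measure only the spread between these samples, and that spread may be technical.

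The members and gene lists were chosen with earlier results of these data known. Named genes are every member and, of each list in each line, genes from the 2 largest called rises and falls; similar profiles are the 2 nearest genes. Alternatives were pseudocounts of 0.1 and 5, no filter, a filter at a mean TPM of 5, the block, median-ratio scaling, quantile normalization, 1 fit of all 18 libraries, removal of mitochondrially encoded genes, plain empirical Bayes and leaving out each library. A pseudocount of 1 in the ratios was added after seeing the data. Promoter windows came from RefSeq (7 of 7 members matched).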

Additional observations from a re-analysis of the deposited data

Results flagged for a closer look

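KSR1 is a scaffold that holds RAF, MEK and ERK together. Its response in SNU2535 minus that in NCI-H3122 was -1.20 (SE 0.137, limma adjusted p = 8.92e-05), the reason KSR1 is given here. In NCI-H3122 KSR1 was at 8.19 ± 0.308 TPM with TRI-611 and 4.67 ± 0.425 TPM with DMSO (SD, n = 3 each; 0.70, limma adjusted p = 0.000531). In SNU2535 it was at 0.755 ± 0.0368 TPM with TRI-611 and 1.49 ± 0.138 TPM with DMSO (SD, n = 3 each; -0.50, limma adjusted p = 0.0476), so it passed the filter there only through the DMSO libraries. That call, and the differences in response that involve SNU2535, therefore carry no weight. The SNU2535 call was lost with the replicate block (limma adjusted p = 0.0922) and without TRI-611 replicates 1, 2 and 3 (limma adjusted p = 0.0791, 0.0914 and 0.083). It was also lost with a pseudocount of 0.1, with median-ratio scaling and without mitochondrially encoded genes (limma adjusted p = 0.0648, 0.0509 and 0.0508). In 4 alternatives, among them leaving out any 1 SNU2535 DMSO library, KSR1 was not tested in SNU2535. In NCI-H2228 the level was 4.07 ± 0.0361 TPM with TRI-611 and 4.11 ± 0.339 TPM with DMSO (SD, n = 3 each). The response in NCI-H3122 minus that in NCI-H2228 was 0.71 (SE 0.117, limma adjusted p = 0.00133). This difference was called in every alternative in which KSR1 was tested. SNU2535 minus NCI-H2228 was -0.49 (SE 0.157, limma adjusted p = 0.0656), which was not called, but was in 5 alternatives.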

How the results depend on the processing

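Of the 3 member calls after TRI-611, those of HRAS in SNU2535 and BRAF in NCI-H3122 held in every alternative, and that of NRAS in NCI-H3122 did not. Members called numbered 2 in SNU2535 under median-ratio scaling and 3 under quantile normalization, and 1 in NCI-H3122 with no filter, the replicate block, quantile normalization, no mitochondrially encoded genes, all 18 libraries or plain empirical Bayes. For SNU2535 minus NCI-H3122 responses 1 was called with the mean filter, the block, median-ratio scaling, no mitochondrially encoded genes or plain empirical Bayes, and for SNU2535 minus NCI-H2228 1 with the mean filter, the block or median-ratio scaling. Without 1 library these counts ran from 1 to 2 in NCI-H3122 and from 0 to 1 for SNU2535 minus NCI-H3122. The causes were not tested.

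Differences that were not called changed sign as follows. Under median-ratio scaling and quantile normalization MAP2K2 was at 0.013 and 0.020 in SNU2535, and for NCI-H3122 minus NCI-H2228 responses ARAF was at -0.038 and -0.060 and MAP2K1 at -0.043 and -0.0036. MAP2K2 was at 0.026 for SNU2535 minus NCI-H2228 responses under median-ratio scaling. In NCI-H2228 NRAS was at 0.039 under quantile normalization and 0.026 without mitochondrially encoded genes, and ARAF at 0.0061 under quantile normalization. BRAF, SNU2535 minus NCI-H2228, was at -0.00080 with a pseudocount of 5 and -0.017 without mitochondrially encoded genes in response, and at 0.00060 under quantile normalization in DMSO level. Without 1 library, responses ran from -0.083 to 0.018 for MAP2K2 in SNU2535; in NCI-H3122 from -0.071 to 0.0087 for ARAF, -0.10 to 0.00090 for MAP2K1, -0.11 to 0.0060 for MAP2K2 and -0.0097 to 0.14 for MAPK3; and in NCI-H2228 from -0.071 to 0.067 for NRAS and -0.0041 to 0.060 for MAP2K2. Differences in response ran from -0.037 to 0.093 for MAP2K2 (SNU2535 minus NCI-H3122), -0.044 to 0.091 for BRAF (SNU2535 minus NCI-H2228), and -0.032 to 0.047 for ARAF and -0.055 to 0.042 for MAP2K1 (NCI-H3122 minus NCI-H2228).

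Of all genes, 1882 were called in NCI-H2228, but 1052 with no filter, 1177 with plain empirical Bayes, 1152 when TRI-611 replicate 1 was left out, 1235 when TRI-611 replicate 3 was, and 1236 or 1179 when DMSO replicate 1 or 2 was. Higher calls were 37.1% of calls in SNU2535 but 50.9% under quantile normalization, 60.6% in NCI-H3122 but 47.5% under median-ratio scaling, and 42.8% in NCI-H2228 but 56.1% without mitochondrially encoded genes. Between DMSO levels they were 59.6% of calls for SNU2535 minus NCI-H3122 but 46.3% under quantile normalization, and 37.9% for NCI-H3122 minus NCI-H2228 but 53.8% under it. Of 66 named calls of pathway genes, 44 held in every alternative in which the gene was tested. Some of those genes were not tested in all of them. DUSP6 in SNU2535 and SPRY4 in SNU2535 and NCI-H3122 were not tested in 3 alternatives each. GAB1, RASGRF1 and RASAL2 in NCI-H3122 were not tested in 1 each. With unknown depth, differences of genes near 1 TPM have no counting interval.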
